A study of Mus musculus with 21 samples.

Results

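The tumour LCDM-P9 replicate 1 was examined for unequal dosage of its parental chromosomes, that is for stretches where one parental copy gave more reads than the other. The series sequenced genomic DNA of mouse embryonic stem cells (ESCs) kept in several media and of tumours from mice made from such cells by tetraploid complementation, a method in which the injected ESCs form the animal. LCDM-P9 replicate 1 carries the name of the LCDM medium, which is N2B27 with LIF (1000 IU), the GSK3 inhibitor CHIR99021 (3 µM), and Dim and Mih (2 µM each), used with feeder cells. It was set against 6 other tumours: 1 of 2iL-P9 (LIF, CHIR99021 at 3 µM and the MEK inhibitor PD0325901 at 1 µM), 3 of A2iL-P9 and 1 of A2iL-P14 (LIF, CHIR99021 at 3 µM and the Src inhibitor CGP77675 at 1.5 µM), and 1 of 2iL-F-P9 (the 2iL medium without feeders). All samples, the wild-type (WT) blood that served as control included, were of the strain written C57BL6X129S6F1. The labels do not say what P9 and P14 stand for, which kind of tumour each was, or how many tumour cells each sample held. The series title names exome sequencing while its design text names ATAC-seq for the tumours. Which of these gave the tumour lists cannot be told from the labels. How read depth relates to copy number depends on the assay, and copy number itself was not measured.

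Member sites were single-nucleotide variants called in all 7 tumour lists that had a dbSNP identifier, lay outside segmental duplications and had a depth of at least 10 reads in each. Of 15030 sites called in at least 1 of the 8 tumours, 6653 autosomal sites met these criteria. LCDM-P9 replicate 1 was chosen by its measured allele fractions and depths, which stood apart from those of the other tumours, and the same values chose chromosomes 2 and 16. They are therefore given as a description, with no test, and a single tumour on one side allows no estimate of its own spread. LCDM-P9 replicate 2 was left out from the start, before the sites were chosen, and only 315 of the member sites (4.73%) were called in it. The lists of 2iL-P9 and 2iL-F-P9 carry names in their headers that differ from their labels. When single tumours were left out of the 6, these 2 included, the fraction difference described below stayed between -0.0877 and -0.0858 on chromosome 2 and between -0.0607 and -0.0556 on chromosome 16.

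In an F1 mouse each autosome is present in 2 copies that differ at many bases, so a site where only one parental copy carries the alternative base gives that base in about equal share with the reference base. A change in the number of one copy moves both the share of alternative reads (the allele fraction) and the number of reads at the site. The mm10 reference is of the strain C57BL/6J, so reference reads at such a site match that strain. Gains of whole chromosomes are common in cultured ESCs and in tumours, and focal amplification is a known way by which tumours carry many copies of a growth factor receptor gene. The allele fraction is given here as alternative reads over all reads pooled across sites. The log2 depth is the median over sites of log2 of tumour reads over WT reads, centred on the median site of each tumour, so that it is relative to the rest of that genome.

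Depth did not set LCDM-P9 replicate 1 apart. Its list held 9858 calls, against 9752 to 10325 in the 6 other tumours, and its median depth at member sites was 36 reads, against 33 to 46. Most member sites were intronic (64.1%) or exonic (26.3%). The WT blood control was the same for all tumours. It had no alternative read at 54.2% of the member sites, and its highest fraction at a member site was 0.0714, so the member sites were near heterozygous in the tumours but not in the control, although both have the same strain label. Intervals below cover counting error only, and neighbouring sites can share reads.

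Over whole autosomes, chromosomes 2 and 16 had a lower allele fraction together with a higher depth than any of the 6 other tumours. On chromosome 2, where 360 member sites lie, the allele fraction was 0.359 in LCDM-P9 replicate 1 (6225 of 17349 reads, 95% Wilson interval 0.352 to 0.366). In the 6 other tumours it was 0.441 at the lowest, 0.446 at the median and 0.451 at the highest. The log2 depth on chromosome 2 was 0.33 in LCDM-P9 replicate 1, and 0.01, 0.05 and 0.08 (lowest, median, highest) in the others. Neither measure overlapped between LCDM-P9 replicate 1 and the other tumours. The differences from the mean of the others were -0.0868 in allele fraction (SD of the others 0.00363, n = 6) and 0.28 in log2 depth (SD 0.03), a depth 1.22 times theirs.

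On chromosome 16, with 130 member sites, the allele fraction was 0.380 in LCDM-P9 replicate 1 (2368 of 6236 reads, Wilson interval 0.368 to 0.392), against 0.421, 0.441 and 0.446 (lowest, median, highest) in the 6 other tumours. The log2 depth was 0.22 in LCDM-P9 replicate 1, and the others had -0.08, 0.01 and 0.03. Both measures again lay outside those of every other tumour. The differences were -0.0574 in allele fraction (SD of the others 0.0101, n = 6) and 0.23 in log2 depth (SD 0.04), a depth 1.17 times that of the others.

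**Figure D1:**
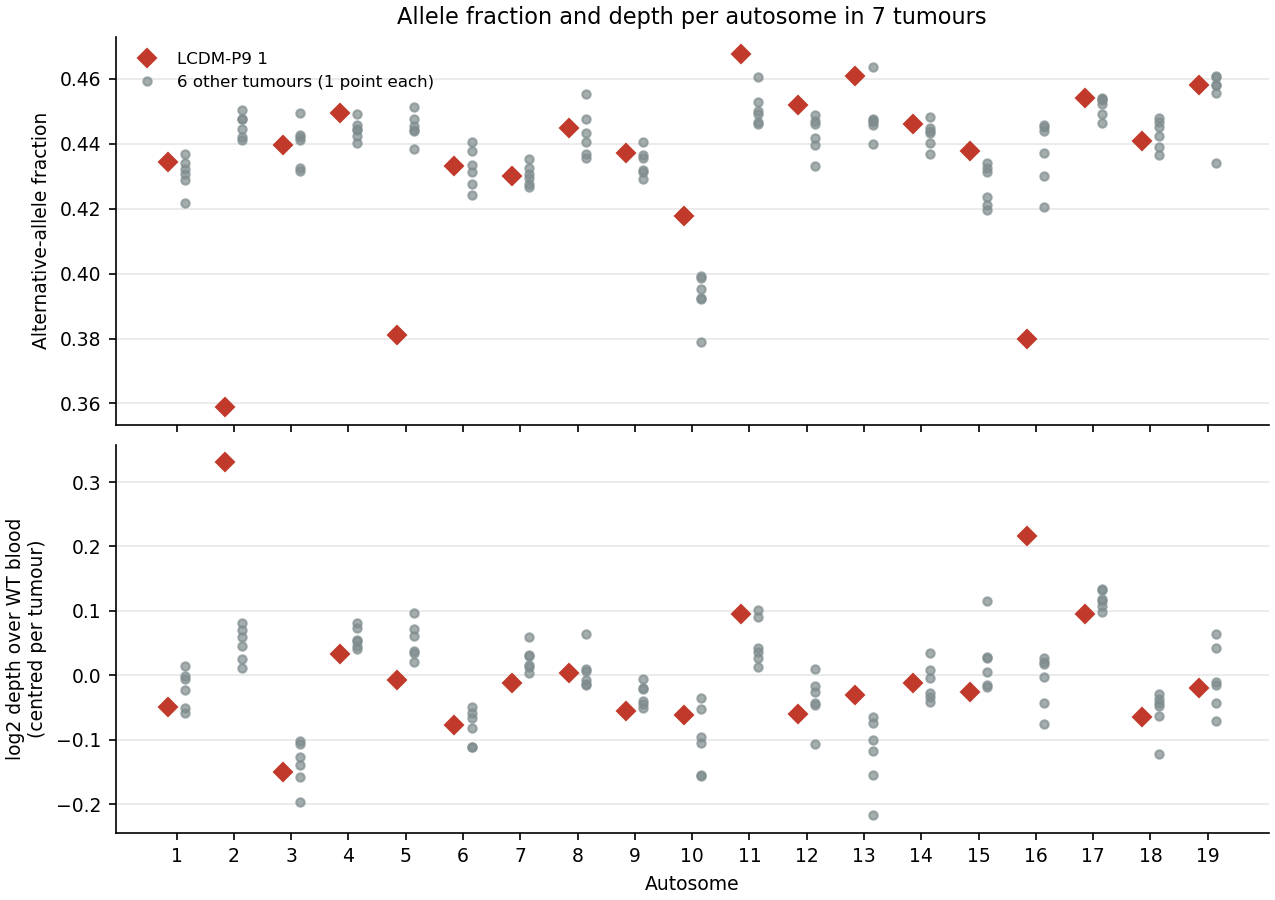
Allele fraction (top) and centred log2 depth over WT blood (bottom) for each of the 19 autosomes, with LCDM-P9 replicate 1 as diamonds and 1 circle for each of the 6 other tumours. On chromosomes 2 and 16 LCDM-P9 replicate 1 lies below the others in fraction (0.359 and 0.380) and above them in depth (0.33 and 0.22), while on chromosome 5 it lies below them in fraction (0.381) without a higher depth.

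The remaining autosomes are given for comparison. In LCDM-P9 replicate 1, 9 of 19 autosomes (47.4%) had an allele fraction outside the range of the 6 other tumours and 9 of 19 (47.4%) a log2 depth outside it, so lying outside that range was common by itself. Both measures lay outside it on 6 of 19 (31.6%), which were chromosomes 2, 4, 5, 15, 16 and 17. On chromosomes 4, 15 and 17 the fraction was higher and the depth lower, and on chromosome 5 both were lower. On the 15 autosomes other than 2, 5, 11 and 16 the difference in fraction ran from -0.00208 to 0.0250 and that in log2 depth from -0.05 to 0.09. Chromosome 5 had a fraction of 0.381, against 0.438 to 0.451 in the others, with a log2 depth of -0.01, against 0.02 to 0.10. Without 10 sites described below, chromosome 5 had a fraction of 0.454, against 0.438 to 0.451.

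Reads of each allele were then scaled by the depth of the library. On chromosome 2, reference reads were 1.42 times the mean of the 6 other tumours, which ranged from 0.981 to 1.02 times, and alternative reads were 0.987 times, the others ranging from 0.989 to 1.02. On chromosome 16, reference reads were 1.29 times the mean of the others (0.972 to 1.03) and alternative reads 1.02 times (0.960 to 1.05). The shift on both chromosomes thus lay in the reference reads, and the alternative reads differed from the mean of the others by under 2% on each. Reference reads per alternative read were 1.44 times those of the other tumours on chromosome 2 and 1.27 times on chromosome 16. For scale, a gain of 1 copy of the reference chromosome in every cell would by arithmetic give a factor of 2 and a log2 depth 0.58 above that of 2 copies. The share of cells that carried a change, or of tumour cells in the sample, was not measured.

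**Figure D2:**
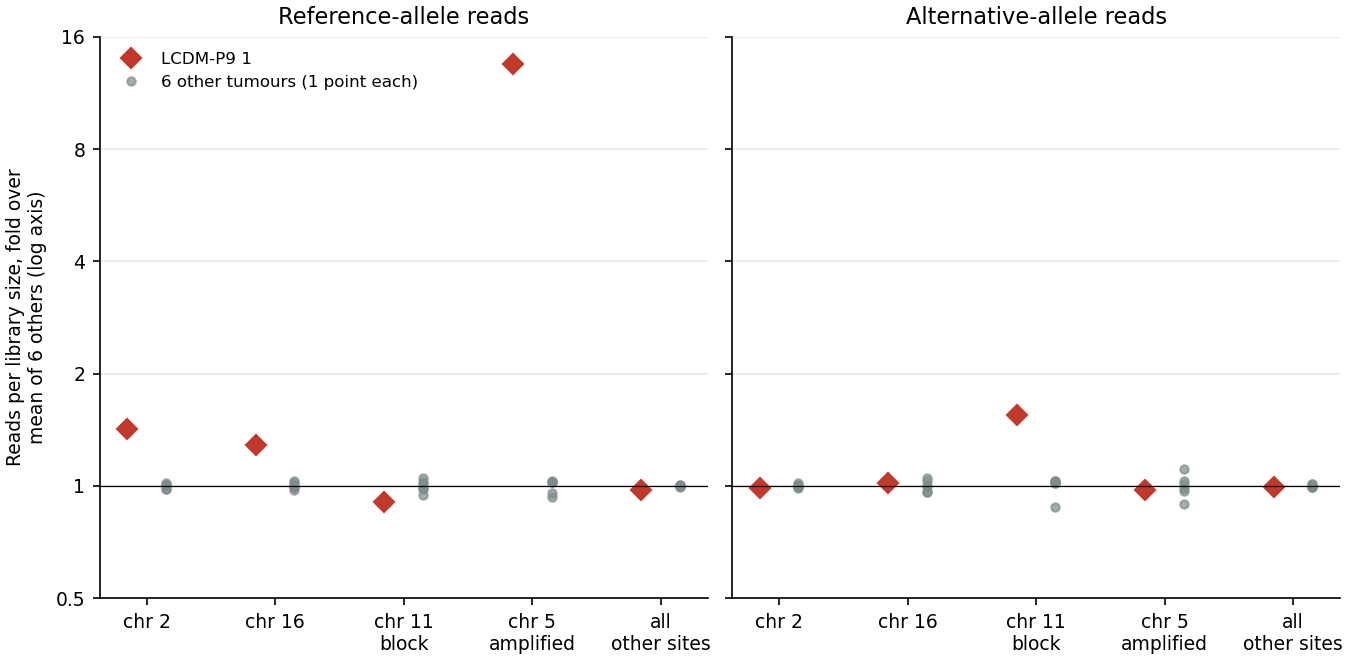
Reads of the reference allele (left) and of the alternative allele (right), scaled by library depth and given as fold over the mean of the 6 other tumours on a log axis, for 5 sets of sites, with LCDM-P9 replicate 1 as diamonds and the others as circles. Reference reads are high on chromosome 2 (1.42), chromosome 16 (1.29) and the amplified sites of chromosome 5 (13.6), while alternative reads are high in the chromosome 11 block only (1.54).

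The shift of chromosome 2 ran along its whole measured length. Member sites spanned positions 3197272 to 178468353 (mm10), and a least-squares search for change points in allele fraction and depth together, with at least 20 sites in a segment, placed none inside it. The search with allele fraction alone also placed none on chromosomes 5 and 11, so its finding none is no evidence of an even shift. In 5-Mb bins with at least 10 sites, a bin was called shifted where LCDM-P9 replicate 1 lay outside the 6 others and at least 0.05 from their mean in fraction, or at least 0.2 in log2 depth. All 10 bins of chromosome 2 were shifted to a lower fraction, by -0.129 to -0.0636. All 10 were also shifted to a higher log2 depth, by 0.21 to 0.39. Over the genome, 15 of 174 bins (8.62%) were shifted to a lower fraction and 19 (10.9%) to a higher depth. The largest difference in fraction, -0.129, was in the bin from 45 to 50 Mb, with 0.351 in LCDM-P9 replicate 1 and 0.418 to 0.523 in the others. The bin nearest the start of the chromosome (0 to 5 Mb) had 0.384 in LCDM-P9 replicate 1 and 0.463 to 0.512 in the others. The bin from 165 to 170 Mb, the one nearest the end with 10 sites, had 0.369, against 0.461 to 0.495.

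Between 80 and 150 Mb of chromosome 2 no bin held 10 sites. The 10 sites found there in all had a pooled fraction of 0.384 in LCDM-P9 replicate 1, against 0.444 to 0.476 in the other tumours. Their log2 depth was 0.23 in LCDM-P9 replicate 1 and -0.14 to 0.23 in the others. The longest run of chromosome 2 without a member site was 21.9 Mb, from 79639320 to 101585238. A change of dosage confined to such a gap would not be seen.

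Site by site, the fraction was below the mean of the 6 others at 305 of 360 chromosome 2 sites (84.7%), against 50.6% of all member sites. The log2 depth was above their mean at 323 (89.7%), against 50.6% of all member sites. On chromosome 16 the fraction was lower at 99 of 130 sites (76.2%) and the depth higher at 115 (88.5%). Single sites are noisy, since the per-site SD of the difference over the genome was 0.0967 in fraction and 0.31 in log2 depth.

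Chromosome 16 showed the same directions with more spread among bins. Its member sites ran from 9643978 to 94133241, and no change point was placed between them. The fraction was below the mean of the 6 others in all 7 bins and the depth above it in all 7. By the call rule, 3 of 7 bins were shifted in fraction and 6 of 7 in depth, 2 of them in both. The bin from 55 to 60 Mb had the largest difference in fraction, with 0.363 in LCDM-P9 replicate 1 against 0.441 to 0.457, and the smallest difference in depth, 0.10. The bin from 85 to 90 Mb differed least in fraction, with 0.326 against 0.327 to 0.390. No member site lay between 12252952 and 29418600, a gap of 17.2 Mb.

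**Figure D3:**
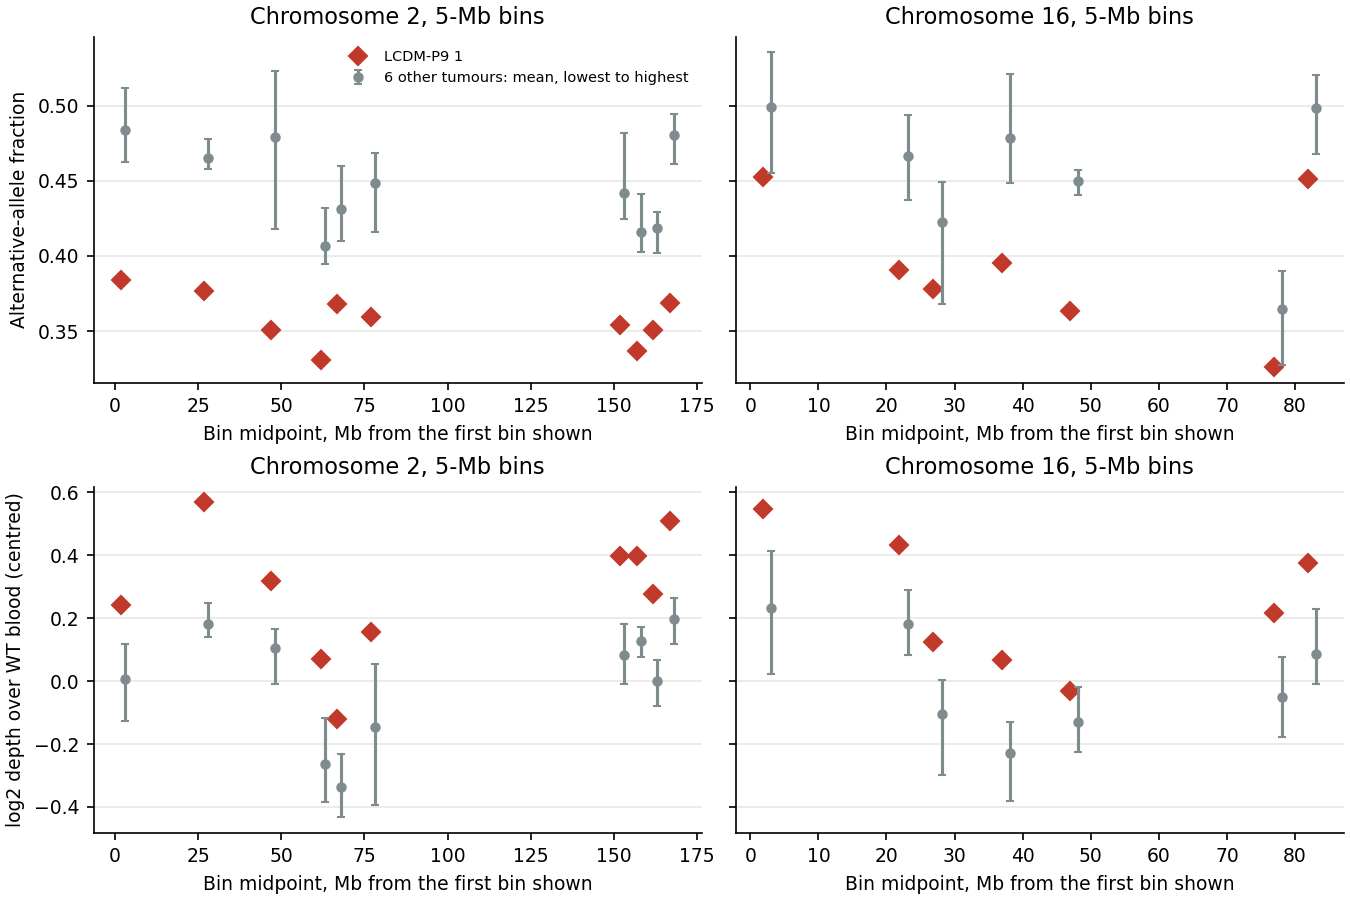
Allele fraction (top) and centred log2 depth over WT blood (bottom) in 5-Mb bins of chromosome 2 (left) and chromosome 16 (right), against the distance in Mb from the first bin shown; diamonds are LCDM-P9 replicate 1, and circles with bars are the mean and the lowest to highest value of the 6 other tumours. The diamonds lie outside the bars in all 10 chromosome 2 bins in both measures; on chromosome 16 all 7 lie below the mean in fraction and above it in depth.

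Sites that the criteria left out gave another view of the same library. At 34 sites of chromosome 2 that failed only on depth, the fraction was 0.361 in LCDM-P9 replicate 1 and 0.425 to 0.537 in the 6 other tumours. Their log2 depth was 0.45 in LCDM-P9 replicate 1 and -0.03 to 0.23 in the others. At 9 such sites of chromosome 16 the ranges overlapped, with 0.423 in LCDM-P9 replicate 1 and 0.417 to 0.623 in the others. At 7 chromosome 2 sites without a dbSNP identifier the fraction (0.271) lay within the others (0.256 to 0.360). Their log2 depth (0.64) lay above the others (0.07 to 0.50). At 2 chromosome 2 sites in segmental duplications the fraction (0.294) lay below the others (0.388 to 0.480). The log2 depth of these 2 (-0.06) lay within the others (-0.50 to 0.01). Missing calls were counted too. Of the sites called in all 6 other tumours, LCDM-P9 replicate 1 lacked 8 of 411 on chromosome 2 (1.95%) and 1 of 140 on chromosome 16 (0.714%), against 219 of 7854 (2.79%) over all autosomes.

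The span of chromosome 2 held 46 genes of a list of 304 cancer genes, 30 of them listed as oncogenes and 16 as tumour suppressors. Among the first 30 in order of position were Gata3 (a T cell and mammary transcription factor), Mllt10 (a partner in leukaemia fusions), Bmi1 (a Polycomb repressor), Notch1 (a receptor that signals in the nucleus after cleavage), Vav2 (a guanine nucleotide exchange factor), Brd3 (an acetyl-lysine reader), Rxra (a nuclear receptor), Ralgds (a Ras effector), Tsc1 (a brake on mTORC1), Set (a PP2A inhibitor), Abl1 (a tyrosine kinase), Nup214 (a nuclear pore protein), Lrp1b (a lipoprotein receptor), Acvr2a (an activin receptor), Hoxd13 (a limb patterning factor), Nfe2l2 (the regulator of the oxidative stress response), Spi1 (a myeloid transcription factor), Ddb2 (a sensor of ultraviolet damage), Creb3l1 (a membrane-bound transcription factor), Ext2 (a heparan sulphate polymerase), Rag2 and Rag1 (the antigen receptor recombinase), Lmo2 (a blood cell transcription cofactor), Wt1 (a kidney and gonad transcription factor), Nutm1 (a fusion partner in NUT carcinoma), Bub1b (a spindle checkpoint protein), Mga (a MAX partner), B2m (the light chain of MHC class I) and Bub1 (a spindle checkpoint kinase). Beyond the last site lay 3 more, of which Eef1a2, a translation elongation factor, is the nearest. No list gene lay before the first site.

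Of the 46 genes, 7 held a member site, and all 7 had a fraction below the mean of the 6 other tumours, against 61.4% of the 44 list genes with sites in the genome. In 5 of the 7 the fraction was below every other tumour, against 25% of the 44, and the log2 depth was above the mean in 7, against 56.8%. The 44 include these 7. Of the 32 list genes with sites outside the shifts, 16 had a fraction below the mean, 5 below every other tumour, and 13 a log2 depth above the mean. The sites of the 7 are among the values that chose chromosome 2, so their counts follow in part from that choice. Ptprt, a receptor tyrosine phosphatase at 161.5 Mb, had most sites (7), with 0.396 in LCDM-P9 replicate 1 (125 of 316 reads, Wilson interval 0.343 to 0.450) and 0.444, 0.473 and 0.511 (lowest, median, highest) in the others. Ncoa3, a steroid receptor coactivator, had 0.339 over 2 sites in LCDM-P9 replicate 1 (39 of 115 reads, Wilson interval 0.259 to 0.430) and 0.451, 0.495 and 0.534 in the others. One of its sites changed the protein (A706V, numbered from the initiator methionine). There 18 of 60 reads carried the alternative base in LCDM-P9 replicate 1, while the fraction in the others was 0.421 to 0.610. Both lie near the end of the chromosome, where the fraction in LCDM-P9 replicate 1 was below that of each other tumour.

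The other 5 genes had 1 or 2 sites each and wide intervals. Gnas, the stimulatory G protein subunit, had 10 of 37 alternative reads in LCDM-P9 replicate 1 (0.270, Wilson interval 0.154 to 0.430), against 0.385 to 0.485 in the others. Plcg1, a phospholipase downstream of receptor kinases, had 0.370, against 0.469 to 0.612. Bub1 had 0.465, against 0.542 to 0.632. In Notch1 (0.289, against 0.217 to 0.486) and Mybl2, a cell cycle transcription factor (0.448, against 0.404 to 0.576), the value lay within the range of the others.

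The span of chromosome 16 held 31 list genes, 17 oncogenes and 14 tumour suppressors. Among the first 30 by position were Ciita (the MHC class II activator), Socs1 (a cytokine signalling inhibitor), Ercc4 (a nuclease of excision repair), Crkl (a signalling adaptor), Lztr1 (an adaptor for Ras degradation), Dgcr8 (a miRNA processing partner), Map3k13 (a kinase of the JNK pathway), Igf2bp2 (an RNA binding protein), Etv5 (an ETS factor), Eif4a2 (a translation helicase), Bcl6 (a germinal centre repressor), Lpp (a focal adhesion protein), Trp63 (an epithelial p53 relative), Pak2 (a Rac effector kinase), Tfrc (the transferrin receptor), Tnk2 (a tyrosine kinase), Muc4 (a membrane mucin), Polq (the polymerase of end joining through microhomology), Gsk3b (the kinase that CHIR99021 inhibits), Cblb (a ubiquitin ligase), Tfg (a fusion partner of receptor kinases), Epha3 (an ephrin receptor), Robo1 and Robo2 (Slit receptors), Usp25 (a deubiquitinase), Bach1 (a haem-sensing repressor), Tiam1 (a Rac exchange factor), Olig2 (a glial lineage factor) and Runx1 (a blood stem cell factor). Just outside the first and the last site lay Crebbp, a histone acetyltransferase, and Erg, an ETS factor.

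Only 3 of the 31 held member sites, and in all 3 the fraction of LCDM-P9 replicate 1 lay within the range of the others. Robo1 had 0.511 in LCDM-P9 replicate 1 (68 of 133 reads), against 0.468 to 0.561. Its site T539N, which changes the protein, had 0.487, against 0.427 to 0.623. Ciita had 0.511, against 0.466 to 0.629. Tiam1 had 0.463, against 0.400 to 0.583, at a single site that changes the protein (T573A). At that site the depth was 54 reads in LCDM-P9 replicate 1, against 31 to 49. In all 3 genes the fraction was below the mean of the others, against 61.4% of the 44 list genes with sites, and the log2 depth above it, against 56.8%. The 44 include these 3, whose sites are among the values that chose chromosome 16. Of the 32 list genes with sites outside the shifts, 16 had a lower fraction and 13 a higher log2 depth than the mean. Tiam1 alone was above every other tumour in log2 depth, with 0.84 in LCDM-P9 replicate 1 against 0.16 to 0.35.

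A different kind of change lay on chromosome 5. Its sites were chosen after their values were seen, as those with a log2 depth at least 1.5 above the mean of the 6 others. The word amplified is used here for this read depth alone, since copy number was not measured. There were 10 of 6653 (0.15%), all on chromosome 5, and the value just inside that limit was 2.49 (the Abcb1b site) while the one just outside was 1.19 (a site in Sltm on chromosome 9). In order they lay in Abcb1b (1 site), Cd36 (2), Gnat3 (1), Kit (5) and Tmem165 (1). Over the 10 sites the allele fraction was 0.0601 in LCDM-P9 replicate 1, against 0.452 to 0.491 in the others. The log2 depth was 2.79 in LCDM-P9 replicate 1 and -0.18 to 0.16 in the others. Reference reads were 13.6 times the mean of the others, and alternative reads 0.976 times, the others ranging from 0.893 to 1.11.

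Kit, which encodes the receptor tyrosine kinase for stem cell factor, a receptor of germ cells, melanocytes, mast cells and blood progenitors, was the list gene with the largest differences in depth. Its RefSeq gene lies at chromosome 5, 75574987 to 75656722 (GRCm38.p6, the assembly of mm10), and all 5 member sites in it are intronic. At position 75652451 the depth was 931 reads in LCDM-P9 replicate 1, and 81, 104 and 120 (lowest, median, highest) in the 6 other tumours and 85 in WT blood. Of the 931 reads 49 carried the alternative base, against 35, 49.5 and 55 alternative reads in the others. At 75641491 the depth was 677 in LCDM-P9 replicate 1, against 49, 76.5 and 94, with 25 alternative reads against 26, 38.5 and 48. Alternative reads lay within the range of the others at 75652451 and just below it at 75641491, and the excess at both was in reference reads.

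At the remaining 3 Kit sites the depth in LCDM-P9 replicate 1 was 200 (position 75606997), 195 (75639233) and 315 (75654409). The others had 28 to 43, 13 to 30 and 28 to 65 reads there. Over the 5 sites together the fraction was 0.0509 (118 of 2317 reads, Wilson interval 0.0427 to 0.0606) in LCDM-P9 replicate 1, against 0.451, 0.473 and 0.518 in the others. The site in Tmem165, a Golgi membrane protein gene, at 76204011 had 412 reads in LCDM-P9 replicate 1 and 41 to 58 in the others. Kit itself was not even, since the first site at 75606997 had a log2 depth difference of 2.56 and the other 4 had 3.07 to 3.28. The depth in LCDM-P9 replicate 1 was above that of each other tumour at every one of these sites.

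**Figure D4:**
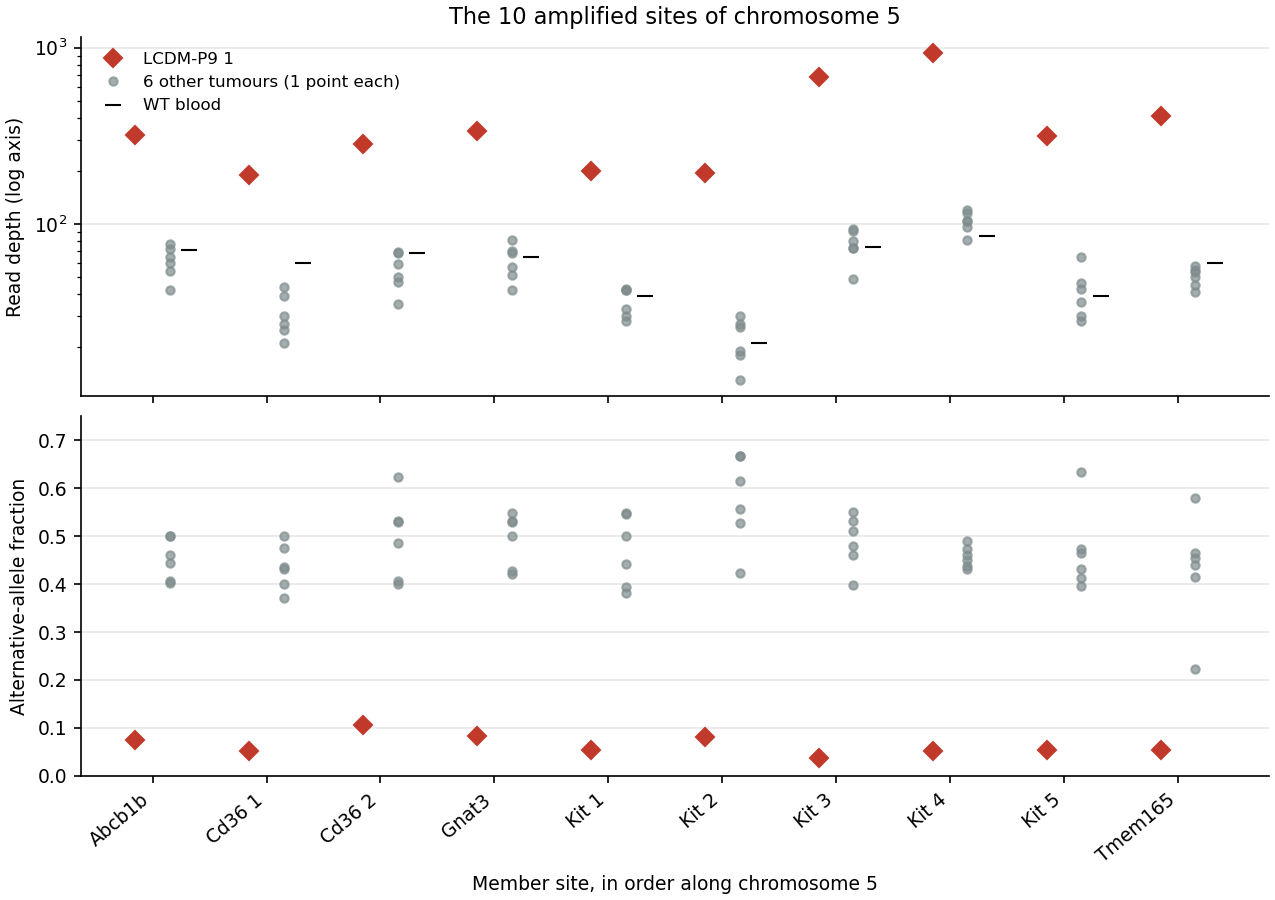
Read depth on a log axis (top) and allele fraction (bottom) at the 10 amplified sites, in order along chromosome 5; diamonds are LCDM-P9 replicate 1, circles the 6 other tumours and dashes WT blood. Depth in LCDM-P9 replicate 1 runs from 190 to 931 and its fraction from 0.0370 to 0.106, apart from all other tumours at each site.

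The amplified sites fell into 3 stretches with ordinary sites between them. The first is the single site 8798637 in Abcb1b, a drug efflux pump gene, where LCDM-P9 replicate 1 had 321 reads and the others 42, 62.5 and 77. The nearest calls on either side in the list of LCDM-P9 replicate 1 had far lower depth. They lie at 8063501 in Sri (log2 depth 0.43, fraction 0.273) and 9118710 in Tmem243 (-0.01, fraction 0.483). The second stretch ran from 17811343 to 17991439 (180.1 kb) over Cd36, a fatty acid transporter and scavenger receptor gene, and Gnat3, the taste G protein subunit gene. Its Gnat3 site is exonic and had 335 reads in LCDM-P9 replicate 1, against 42, 62.5 and 81. Far lower depth was found at 17727884 in Sema3c (0.46) and 19227396 in Magi2 (0.02). At amplified depth this stretch is thus at most 1500 kb long. Log2 depth differences were 2.49 for the first stretch and 2.51 for the second, a depth 5.61 and 5.69 times that of the others.

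The third stretch ran from 75606997 to 76204011 (597.0 kb), with a log2 depth difference of 3.20, a depth 9.17 times that of the others. RefSeq places 4 protein-coding genes at or between its first and last sites. These are Kit, Kdr (the VEGF receptor of endothelium, also a list gene), Srd5a3 (a polyprenol reductase) and Tmem165. No call lay between the last Kit site and the Tmem165 site, so whether Kdr and Srd5a3 were amplified cannot be told. On the left, ordinary depth was found at 74685431 in Lnx1 (log2 depth 0.09). Pdgfra, the PDGF receptor gene at 75.2 Mb, lies between that site and the first Kit site, and holds no member site, so whether it was amplified cannot be told. On the right the next call lies in Enam at 88492868 (0.45, fraction 0.368), so the right end is loosely bounded. At amplified depth the stretch is at most 13807 kb long. Whether the Sri, Sema3c and Enam sites carried a smaller gain was not tested. A further 4 calls that missed the criteria, 2 in Cd36 and 2 in Kit, had log2 depths of 2.14 to 3.27 and fractions of 0.0380 to 0.121.

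None of the other tumours compared had amplified depth at these sites, as their depth values above show. The sites were chosen for a depth above the mean of those tumours, so this follows in part from that choice. LCDM-P9 replicate 2 had no call inside the 3 stretches. The lists give depth only at called variants, so whether LCDM-P9 replicate 2 was amplified there cannot be told. In the list of LCDM-P9 replicate 1, calls with comparable depth elsewhere were a pair of intergenic sites without a dbSNP identifier on chromosome 3, at 146839141 and 146839159. Their log2 depths of 2.72 and 2.65 lay within those of the other tumours that called them (2.59 to 2.85 and 2.64 to 2.84). High depth at this pair was thus shared with the other tumours.

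Chromosome 11 held a stretch that moved the other way. The change-point search placed 41 sites from 72357668 to 93490706 in one segment, with a fraction of 0.575 in LCDM-P9 replicate 1 and 0.434 to 0.473 in the 6 other tumours. With either measure alone, or with a penalty of 6 or 10 times the natural log of the sites in place of 3, no change point was placed on chromosome 11. Within it the shifted sites ran from Slfn9 at 82988388 to Pctp at 89988861, a block of 31 sites and 7.0 Mb whose ends were set after the values were seen. In the block the fraction was 0.596 in LCDM-P9 replicate 1 (833 of 1398 reads, Wilson interval 0.570 to 0.621), and 0.435, 0.463 and 0.485 (lowest, median, highest) in the others. It was above the mean of the others at 30 of 31 sites, while 50.6% of all member sites were below that mean. The ends of the block were set on these values, so this count follows in part from that choice. The log2 depth was 0.19 in LCDM-P9 replicate 1, against -0.15, -0.09 and 0.02. Here alternative reads were 1.54 times the mean of the others (0.879 to 1.03) and reference reads 0.903 times (0.944 to 1.05). The allele in excess was thus the opposite one from chromosomes 2 and 16 and from the amplified sites of chromosome 5.

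**Figure D5:**
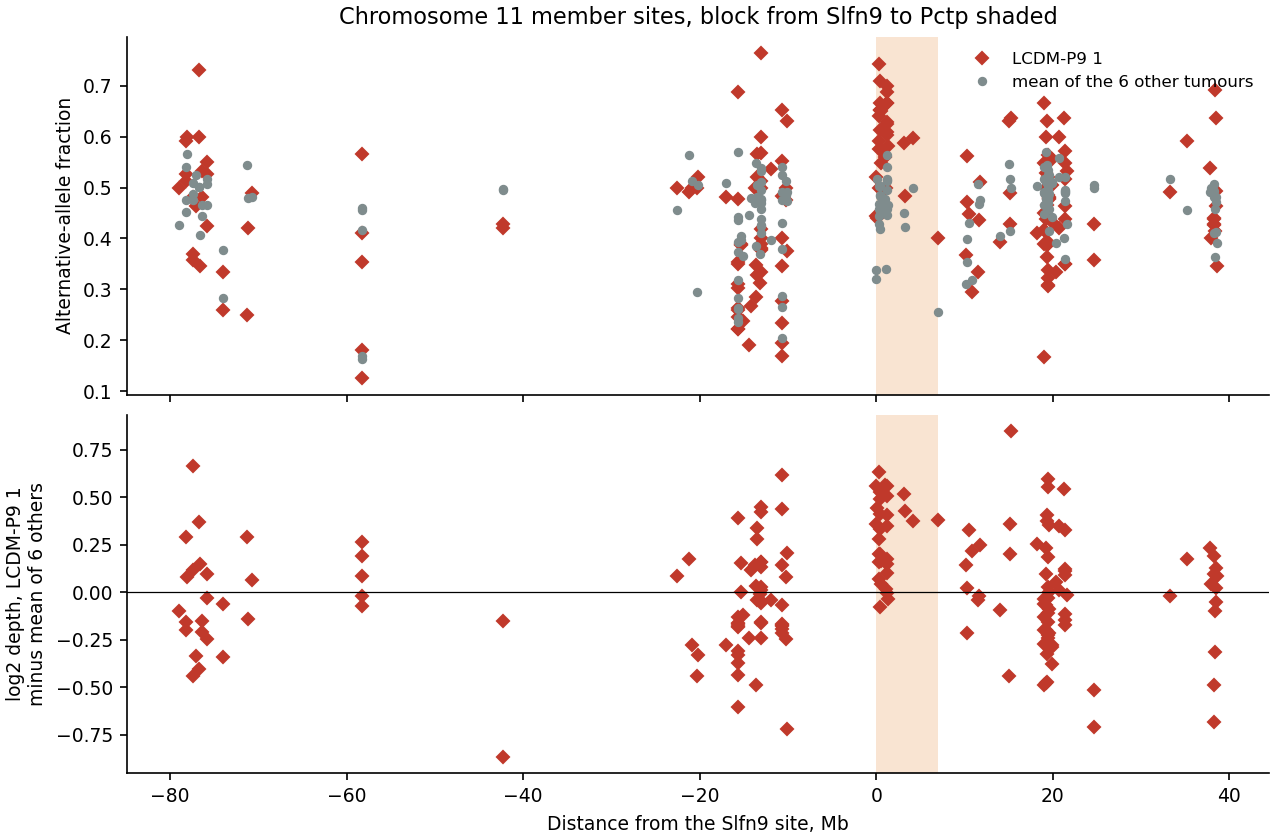
Allele fraction (top) of LCDM-P9 replicate 1 (diamonds) and of the mean of the 6 other tumours (circles), and log2 depth difference (bottom), at the member sites of chromosome 11 against distance from the Slfn9 site in Mb, with the block of 7.0 Mb shaded. In the block, whose ends were set on these values, 30 of 31 diamonds lie above the mean fraction of the others and 28 of 31 above their depth. Of all member sites, 50.6% lie below that mean in fraction and 50.6% above it in depth.

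The block's ends are loosely bounded, by gaps of 10.1 Mb before it (the nearest site is at 72889182) and 3.20 Mb after it (93185023). The rest of chromosome 11, with 159 sites, had a fraction of 0.438 in LCDM-P9 replicate 1 against 0.440 to 0.461, and a log2 depth of 0.07 against 0.01 to 0.13. The segment from the search covers 5 list genes. These are Nf1 (a Ras GTPase activator), Suz12 (a Polycomb subunit), Ppm1d (a phosphatase of the p53 pathway), Brip1 (a helicase of DNA repair) and Rad51c (a recombination protein). Nf1 and Suz12 lie in the gap before the block, with no site of their own. Brip1 alone holds a member site, with 27 of 46 alternative reads in LCDM-P9 replicate 1 (0.587, Wilson interval 0.443 to 0.717), against 0.351 to 0.538 in the others. The nearest list genes outside are Trp53 on the left, the p53 gene, and Erbb2 on the right, a receptor kinase gene.

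Isolated 5-Mb bins were also called elsewhere. For fraction these were 1 lower bin each on chromosomes 5 and 6, and higher bins on chromosomes 10, 13 and 15, with differences of 0.0524 to 0.0699. With the chromosome 11 bin from 80 to 85 Mb, 4 of 174 bins (2.3%) were shifted to a higher fraction. The lower bin of chromosome 5, from 15 to 20 Mb, holds 3 of the amplified sites, and without the amplified sites 18 bins in place of 19 were shifted in fraction. For depth, single bins on chromosomes 8, 11 (the same bin as for fraction) and 17 were higher, and 1 each on chromosomes 5 and 9 lower (2 of 174, 1.15%). Chromosomes 2, 16 and 11 were the only ones with bins called in both measures, with 10, 2 and 1 such bins.

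Base changes found in LCDM-P9 replicate 1 alone were counted as well, without such counts for the other tumours. LCDM-P9 replicate 1 had 54 calls that no other tumour shared, without a dbSNP identifier and outside segmental duplications. Of these, 5 lay on chromosome 2, 1 on chromosome 16 and 0 in the amplified stretches. For scale, chromosome 2 held 360 of the 6653 member sites, chromosome 16 held 130, and 10 were amplified. The 0 in the stretches therefore says little. Protein-changing calls numbered 9, with 0 in genes of the cancer list, and the share of all calls in list genes was not computed.

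The ESC libraries kept in LCDM were asked whether depth on chromosomes 2 and 16 was also higher there. This used sites called in all 10 ESC lists against fibroblast DNA, and none of the values that chose the tumour. Unlike the tumour sites, they included segmental duplications and sites without a dbSNP identifier. On chromosome 2 (39 sites) the log2 depth was -0.07 and -0.11 in the 2 LCDM libraries, against -0.04 to 0.06 in the 8 others, 2 each of 2iL, A2iL, 2iL-F and SL (serum and LIF with feeders). The means were -0.090 ± 0.035 (SD, n = 2) in LCDM and 0.00032 ± 0.037 (SD, n = 8) in the others, a difference of -0.090. The exact two-sided permutation test over 45 splits gave p = 0.0222, the smallest it can give, and 0.0444 after Benjamini-Hochberg adjustment over the 2 chromosomes. The 2 LCDM libraries were thus lower, not higher, on chromosome 2. The test took the 10 libraries as independent, yet the 2 libraries of a medium lay close together there. They had 0.057 and 0.051 in A2iL, -0.036 and -0.039 in 2iL-F, -0.005 and 0 in SL, and 0.002 and -0.026 in 2iL. With the medium as the unit LCDM is 1 value, so the p does not measure a difference between media. Without segmental duplications (36 sites) the difference was -0.067, with an exact permutation p of 0.0222 (adjusted 0.0444). With 1 library left out, the difference ranged from -0.114 to -0.065. Without library 3 or 5 of SL, or library 3 of 2iL, the exact permutation p was 0.0556 (adjusted 0.111). The smallest p possible there was 0.0278. Without library 5 of 2iL or library 3 of A2iL, the exact permutation p was 0.0278 (adjusted 0.0556). An adjusted p under 0.0556 would need chromosome 16 to reach the smallest p too. Within library numbers the same holds for an adjusted p under 0.08. On chromosome 16 (8 sites) LCDM had -0.08 and 0.19, against -0.14 to 0.18, and the groups overlapped (difference 0.038, exact permutation p = 0.756, adjusted 0.756). The labels do not say which ESC culture, if any of these, gave rise to LCDM-P9 replicate 1.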

How the data were processed

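Per the file headers, the authors deposited for each tumour a list of single-nucleotide variants against WT blood, other values per line being a genotype, reads per allele, depth, allele fraction, base quality and a somatic status; every line was marked as passing the filter. Per the submitters' processing notes, BWA, SAMtools and Picard were used with mm10, without versions; the variant caller was not given in those sources. From the deposited reads per allele, fractions and log2 depth ratios were computed with Python 3.11.15 and pandas 2.3.3 as defined above. Change points were found by binary segmentation, both measures scaled by their per-site SD, with a penalty of 3 times the natural log of the sites on the chromosome. The method was also run on simulated data, with an outcome not reported here. Sites were drawn independently there, whereas neighbouring sites in the tumours can share reads. Cancer genes were a list of 304 oncogenes and tumour suppressors, all placed through RefSeq GRCm38.p6; those inside a shift were named in order of position, up to 30 on each of chromosomes 2 and 16 (some are not reported here), and those with a member site were given values. The sites, chromosomes and lists were chosen with earlier results of these data known. The ESC libraries have p-values that measure only the spread between libraries, which may be technical, since nothing says that they came from separate cultures.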

Additional observations from a re-analysis of the deposited data

Results flagged for a closer look

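Chromosome values of the 6 other tumours were searched for a tumour far from its fellows, by a rule that chance meets in about 1 of 20 groups. Of 38 sets of 6 values, 6 were flagged. In A2iL-P9 replicate 1 the allele fraction of chromosome 10 was 0.379, against 0.392 to 0.399 in the other 5. Its log2 depth was 0.064 on chromosome 8 (the others -0.02 to 0.01), 0.11 on chromosome 15 (the others -0.02 to 0.03) and -0.12 on chromosome 18 (the others -0.06 to -0.03). In A2iL-P14 the fraction of chromosome 13 was 0.464, against 0.440 to 0.448. In A2iL-P9 replicate 2 the fraction of chromosome 19 was 0.434, against 0.456 to 0.461. None was on chromosome 2, 5, 11 or 16.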

How the results depend on the processing

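With 1 tumour on one side, no value of LCDM-P9 replicate 1 has a replicate error, and boundaries are known only to the nearest site. The differences on chromosomes 2 and 16 kept their direction under every alternative run. Chromosome 2 ranged from -0.0951 (sites at least 1 kb apart, added after seeing the data) to -0.0858 in fraction and from 0.26 to 0.34 in log2 depth, the highest with only sites without an alternative read in the control. Chromosome 16 ranged from -0.0725 (median of site fractions) to -0.0551 in fraction, with -0.0684 at sites without an alternative read in the control, and from 0.21 to 0.25 in log2 depth. No alternative placed a change point on chromosome 2 or 16, but the higher penalties can only remove change points, and fraction alone and the penalty of 10 placed none on chromosomes 5 and 11 either. The chromosome 11 change points were lost with either measure alone and with penalties of 6 and 10. There were 10 amplified sites when single tumours were left out and 9 with a depth of at least 20; thresholds of 1.2 and 2 lie in the gap between 1.19 and 2.49 and could not change the count. Leaving out single tumours gave 18 to 21 bins shifted in fraction and 19 to 23 in depth, against 19 and 21. Using only sites without an alternative read in the control, which leaves fewer bins, gave 12 in fraction and 12 in depth. Thresholds of 0.03 and 0.08 gave 37 and 10 bins in fraction, and 0.1 and 0.3 gave 43 and 6 in depth. For LCDM ESCs, the chromosome 2 difference was -0.114 to -0.065 and that of chromosome 16 -0.097 to 0.173 when 1 library was left out, the lowest without LCDM library 5, where chromosome 16 reversed. With 1 library fewer, an adjusted p under 0.0556 would need chromosome 16 to reach the smallest p too. With library number 3 or 5 as a block the chromosome 2 difference was -0.090, with an adjusted exact permutation p of 0.08. That is the smallest it allows unless chromosome 16 reaches its own smallest p. Depth differences between library numbers at single sites were nearly uncorrelated between conditions (correlations -0.0729 to 0.0754 over 10 pairs of conditions). Single sites are noisy, so whether the numbers pair libraries cannot be told.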
